A study of Mus musculus with 4 samples.

Results

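Interferon-stimulated genes are the genes that cells switch on when interferon or viral nucleic acid is sensed, and 31 of them were followed here through every library of the study. They were chosen by symbol from a list that runs from the sensors of viral RNA to the antiviral effector enzymes. All 31 symbols were found among the 22722 genes counted. The samples were cultures grown from MPC11, a plasmacytoma (plasma cell tumour) line of the mouse that secretes antibody. Both groups were infected with a pLKO.1 lentivirus, and each had 2 biological replicates by their labels. The control group (shGFP) carried a short hairpin RNA against GFP, which has no target among mouse transcripts, and the depleted group (Ell2-KD) carried 1 hairpin, 1C7, against Ell2, a factor that keeps RNA polymerase II elongating. Virus was left on for 18 h, puromycin selection followed for 72 h, and the cells were expanded for another 72 h before their RNA was taken. Virus, polybrene, puromycin and a hairpin were therefore shared by all 4 cultures. Cells without virus were not analysed here, so the values describe levels under a hairpin vector and the difference between 2 hairpins, not the response to the vector. With 1 hairpin against Ell2, its effects apart from Ell2 cannot be told apart from those of depletion. The labels do not say whether the replicates were infected separately, so the p-values speak for the spread among these 4 libraries, which may be technical.

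Type I interferon binds a receptor of the chains IFNAR1 and IFNAR2, whose kinases JAK1 and TYK2 phosphorylate STAT2. STAT2 and IRF9 are parts of ISGF3, a transcription factor that binds the interferon-stimulated response element in the promoters of its target genes. The targets include the sensors and transcription factors of the pathway itself, so that a first signal raises the readiness for the next, and enzymes that cut viral RNA, block translation or hold back budding virus. Many cells keep a low level of these genes without any infection. Hairpins and lentiviral RNA can in principle be seen by the same sensors, which is why the genes are of interest in any knockdown experiment.

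The response element is what the promoters of this family are known for, and its core was looked for as GAAA, 2 bases of any kind and GAAA again, on both strands, in 300-base windows from 250 bases before to 50 after each gene's start (RefSeq, GRCm38.p6). Of the 31 genes, 24 had a window, and 11 of these 24 held a match, against 3.99% of all 27025 genes with a window. No other motif was searched. The stretches below show each run of matches with its neighbouring bases, written 5′ to 3′ on the gene's own strand. Capitals mark the matched bases, and a match on the opposite strand starts and ends with TTTC.
Isg15, chr4:156200867-156200904, minus strand: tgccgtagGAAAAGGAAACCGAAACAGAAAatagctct
Oas1a, chr5:120907522-120907553, minus strand: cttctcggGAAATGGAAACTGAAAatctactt
Bst2, chr8:71537579-71537610, minus strand: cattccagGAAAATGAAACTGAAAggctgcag
Irgm1, chr11:48871427-48871458, minus strand: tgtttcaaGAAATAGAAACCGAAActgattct
Ifit1, chr19:34640777-34640821, plus strand: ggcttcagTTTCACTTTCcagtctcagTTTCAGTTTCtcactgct
Ifit3, chr19:34583365-34583390, plus strand: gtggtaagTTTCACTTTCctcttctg
Ifit3, chr19:34583399-34583424, plus strand: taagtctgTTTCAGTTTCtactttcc
Stat2, chr10:128270268-128270293, plus strand: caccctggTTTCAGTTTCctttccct
Rsad2, chr12:26456555-26456580, minus strand: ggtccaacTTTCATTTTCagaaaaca
Ddx58, chr4:40239806-40239831, minus strand: tgaggcagTTTCGATTTCctatggcc
Ifih1, chr2:62646206-62646231, minus strand: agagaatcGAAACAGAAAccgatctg
Eif2ak2, chr17:78882537-78882562, minus strand: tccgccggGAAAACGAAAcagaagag

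The matches differed in number and place among the genes. Isg15 had 3 matches that overlap one another in a single run, Oas1a, Bst2 and Irgm1 had 2 overlapping matches each, Ifit1 and Ifit3 had 2 separate matches each, and the other 5 genes had 1. In 8 of the 11 genes the matches lay before the start, and in Ddx58, Ifih1 and Eif2ak2 they lay just after it. The remaining 13 genes with a window, among them Irf7, Irf9, Dtx3l, Trim25 and Adar, had no such letters in it, which says nothing about binding elsewhere. The 250 bases before the start are shown in full for 2 genes that differ in level, Isg15, the defining marker of the family, and Ifit1, which is strongly induced in most cells that answer interferon.
Isg15, chr4:156200819-156201068, minus strand: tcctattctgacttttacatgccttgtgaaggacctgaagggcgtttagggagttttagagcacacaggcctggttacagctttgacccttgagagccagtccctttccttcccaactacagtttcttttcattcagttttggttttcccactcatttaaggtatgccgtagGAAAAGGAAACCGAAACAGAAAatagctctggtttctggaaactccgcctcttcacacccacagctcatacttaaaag
Ifit1, chr19:34640639-34640888, plus strand: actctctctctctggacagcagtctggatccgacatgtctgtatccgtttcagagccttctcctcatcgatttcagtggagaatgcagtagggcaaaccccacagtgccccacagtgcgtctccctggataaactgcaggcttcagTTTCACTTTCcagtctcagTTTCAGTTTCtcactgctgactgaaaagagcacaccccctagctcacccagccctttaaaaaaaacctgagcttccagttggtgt

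**Figure D1:**
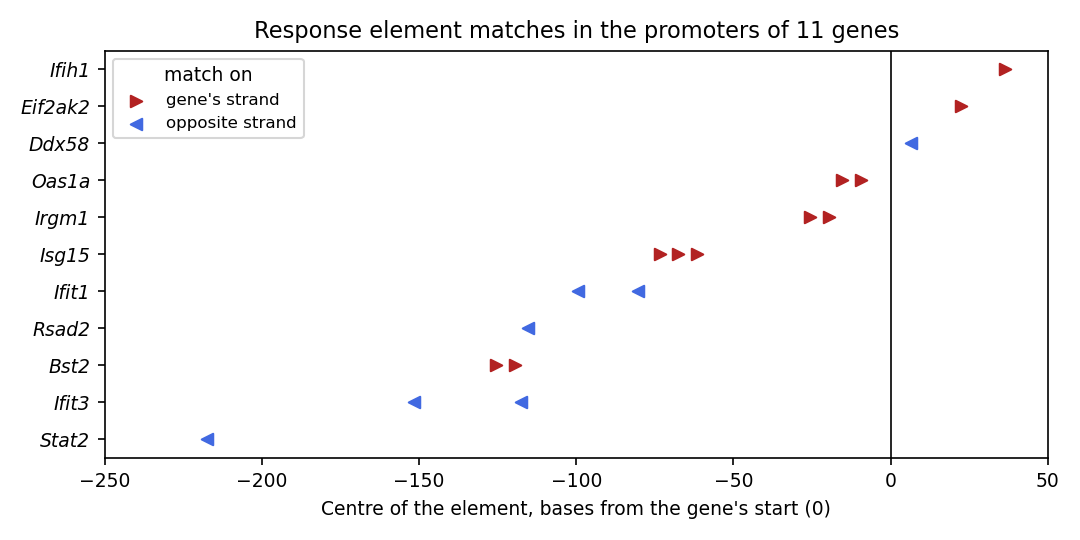
Position of each response element match in the promoter windows of the 11 genes that hold one. The x axis gives the centre of the match in bases from the gene's start, arrowheads point along the strand on which the match reads GAAA, and the matches of Isg15, Oas1a, Bst2 and Irgm1 stand in overlapping runs.

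Sequencing depth ranged from 3496471 counts in Ell2-KD replicate 2 to 13914488 in Ell2-KD replicate 1, with 8323915 in shGFP replicate 1 and 5088789 in shGFP replicate 2. Ell2 itself checked the labels, with 7864 and 5019 counts in shGFP, against 1238 and 394 in Ell2-KD. The line expressed plasma cell markers (Sdc1, Xbp1, Irf4, Prdm1, Igj and Tnfrsf17 took 12272 to 19148 CPM of each library, where CPM is a count scaled to a common library size). Igj, the joining chain of secreted antibody, made up 98273 and 49581 of the 159386 and 73777 marker counts in shGFP, and 130045 and 28894 of 219369 and 42909 in Ell2-KD. Several tested markers had groups that lay apart, against 17.4% (higher) and 18.5% (lower) of all tested genes. Irf4, Prdm1 and Igj were lower in both depleted libraries, as was Clec12a, a gene of plasmacytoid dendritic cells. C1qb, a macrophage gene, was higher in both. The groups of Xbp1 and Cd79b overlapped, as did those of the other tested macrophage genes, Cd68 and Itgam. A further 3 markers with separate groups were named after their values were seen. For Tnfrsf17, which encodes BCMA, a receptor of long-lived plasma cells, there were 159 and 126 counts in shGFP, against 18 and 1 in Ell2-KD. Tnfrsf17 met the count filter described below only through the control libraries, so it had to stand higher there. Sdc1, the surface marker CD138, stood at 784 and 648 CPM against 478 and 347, and Ms4a1, the B cell antigen CD20, at 378 and 348 against 836 and 941 (these after TMM scaling). None of these 3 passed with edgeR (adjusted p = 0.18, 0.58 and 0.086), and the part of such shifts in the results below was not tested. Macrophages and plasmacytoid dendritic cells are rich in interferon-stimulated transcripts. Of their markers, Lyz2, Cd14 and Siglech had at most 3 counts in any library, but others were counted. Summed over 10 macrophage and monocyte genes, the level was 17.3 and 14.5 CPM of all counts in shGFP, against 23.1 and 46.9 in Ell2-KD. Most of it came from C1qb and Cd68, and its part in the results below was not tested. Cd68 had 97 and 31 counts in shGFP, against 51 and 108 in Ell2-KD. Of 6 genes of plasmacytoid dendritic cells, Tcf4 alone made up 5255, 3568, 7182 and 2917 of the 5725, 3808, 7402 and 3042 counts, in shGFP replicates 1 and 2 and Ell2-KD replicates 1 and 2. Clec12a had 286 and 128 counts in shGFP, against 121 and 48 in Ell2-KD, and Ly6d had 183 and 91 against 83 and 69. The part of these genes in the results below was not tested either.

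Most of the family was expressed at a low to moderate level, and some of its best known members were close to absent. From here on CPM values are after TMM scaling of the libraries, and in bulk RNA fewer expressing cells and less RNA per cell cannot be told apart. A gene was tested when it had about 10 counts or more, at the median depth, in at least 2 libraries. This was met by 24 of the 31 genes (77.4%), against 48.5% of all genes counted. Per kilobase of exon, the tested interferon-stimulated genes lay between the 0.87th and the 94.7th percentile of 10890 tested genes with a known length, with a median at the 41.7th percentile in the controls. Bst2, the membrane tether that holds budding virus at the cell surface, stood highest at 80.9 CPM per kilobase in shGFP and 94.4 in Ell2-KD. Trim25, the ubiquitin ligase that activates RIG-I, followed at 47.6 and 56.6 CPM per kilobase. All 31 together took 1337 and 1177 CPM of all counts in the control libraries, and 1349 and 1510.4 in the depleted ones.

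At the low end, 5 genes had fewer than 10 counts in every library. Oas1a, a synthetase of the 2-5A messenger that activates RNase L, had 0 counts in all 4 libraries, which allows up to 0.36 and 0.60 CPM in shGFP, and 0.21 and 0.88 CPM in Ell2-KD (3 counts each, counting error only). Usp18, the protease that removes ISG15 and dampens the receptor, had 1 count, in Ell2-KD replicate 2. Ifit3, a partner of Ifit1 in binding viral RNA, had 3 counts, in shGFP replicate 2. These are among the genes that ISGF3 raises most in cells that respond, and Oas1a and Ifit3 carry the response element in the stretches printed above. Oasl2, an OAS-like protein, had 1 and 4 counts in shGFP, against 1 and 1 in Ell2-KD. Mx2, a dynamin-like GTPase, had 0 and 4 against 2 and 2. RefSeq lists both Mx1 and Mx2 as transcribed pseudogenes in its C57BL/6J reference, so counts there do not imply protein. Ifit3 has a close copy, Ifit3b, and Oas1a has several, and reads that fit 2 copies may have been dropped or split, so these low values are uncertain.

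**Figure D2:**
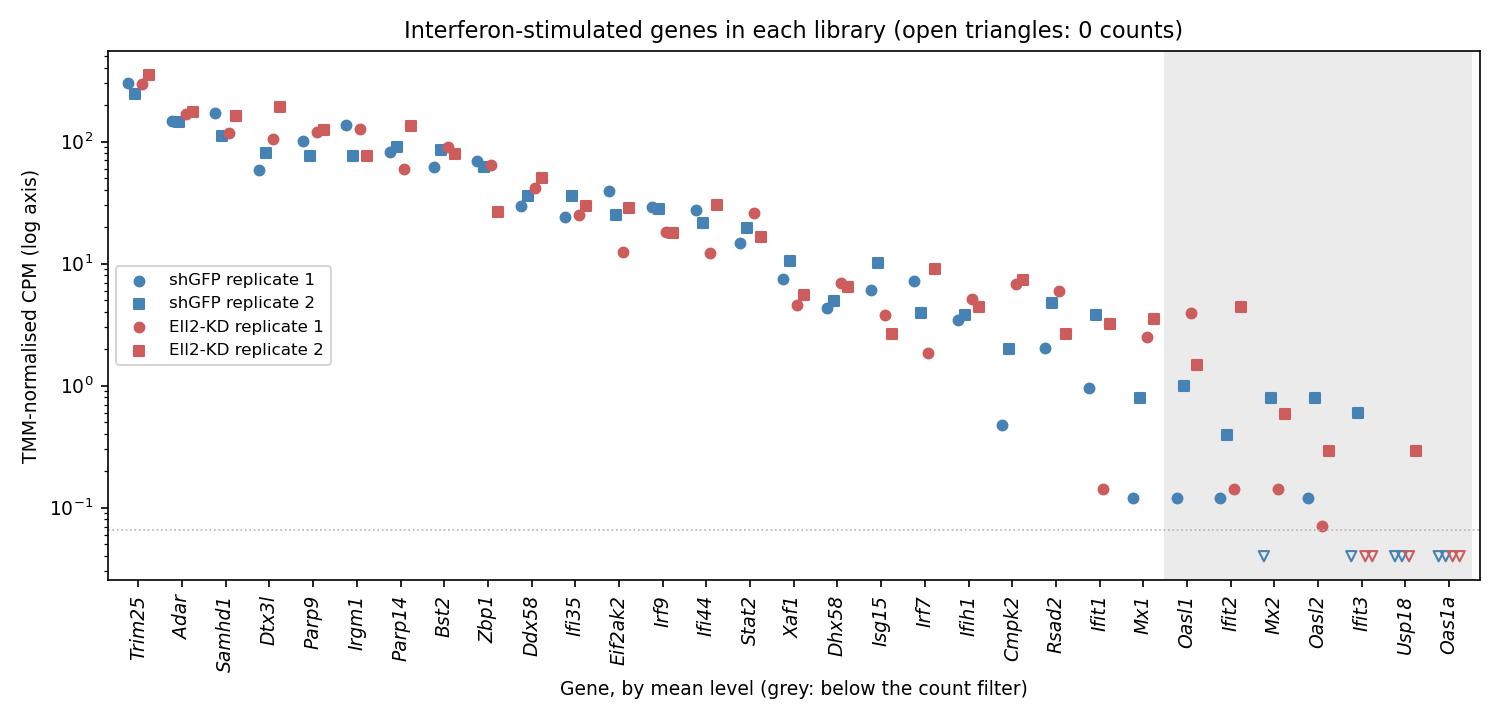
TMM-normalised CPM of each of the 31 genes in each of the 4 libraries on a log axis, in order of mean level, with shGFP in blue and Ell2-KD in red. Open triangles below the dotted line stand for 0 counts, and grey marks the 7 genes below the count filter; Oas1a is at 0 in all 4 libraries.

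No interferon-stimulated gene passed the test between Ell2-KD and shGFP. With edgeR's quasi-likelihood test and Benjamini-Hochberg adjustment over 11027 genes, 0 of the 24 tested genes passed, and 0.0453% of all genes did. At an unadjusted p under 0.05 there was 1 gene, Dtx3l, against 5.82% of all genes. DESeq2 gave 0 genes after adjustment, against 0.443% of the genes it adjusted, and 2 before it, Dtx3l and Cmpk2, against 6.25% of all genes. The edgeR adjusted p of the 24 ran from 0.65 to 0.999. Their log2 changes were positive in 13 and negative in 11, with a median of 0.20, where the median of all tested genes was -0.00 and 49.9% were positive. Both depleted libraries lay above both controls for 8 genes and below both for 3, against 17.4% and 18.5% of all tested genes. Of those 8, Mx1 met the filter only through the depleted libraries and so had to stand higher there. Cmpk2 met it in both depleted libraries and in shGFP replicate 2. A p that misses the threshold does not show that the levels were alike, and the intervals below give the sizes that remain possible.

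**Figure D3:**
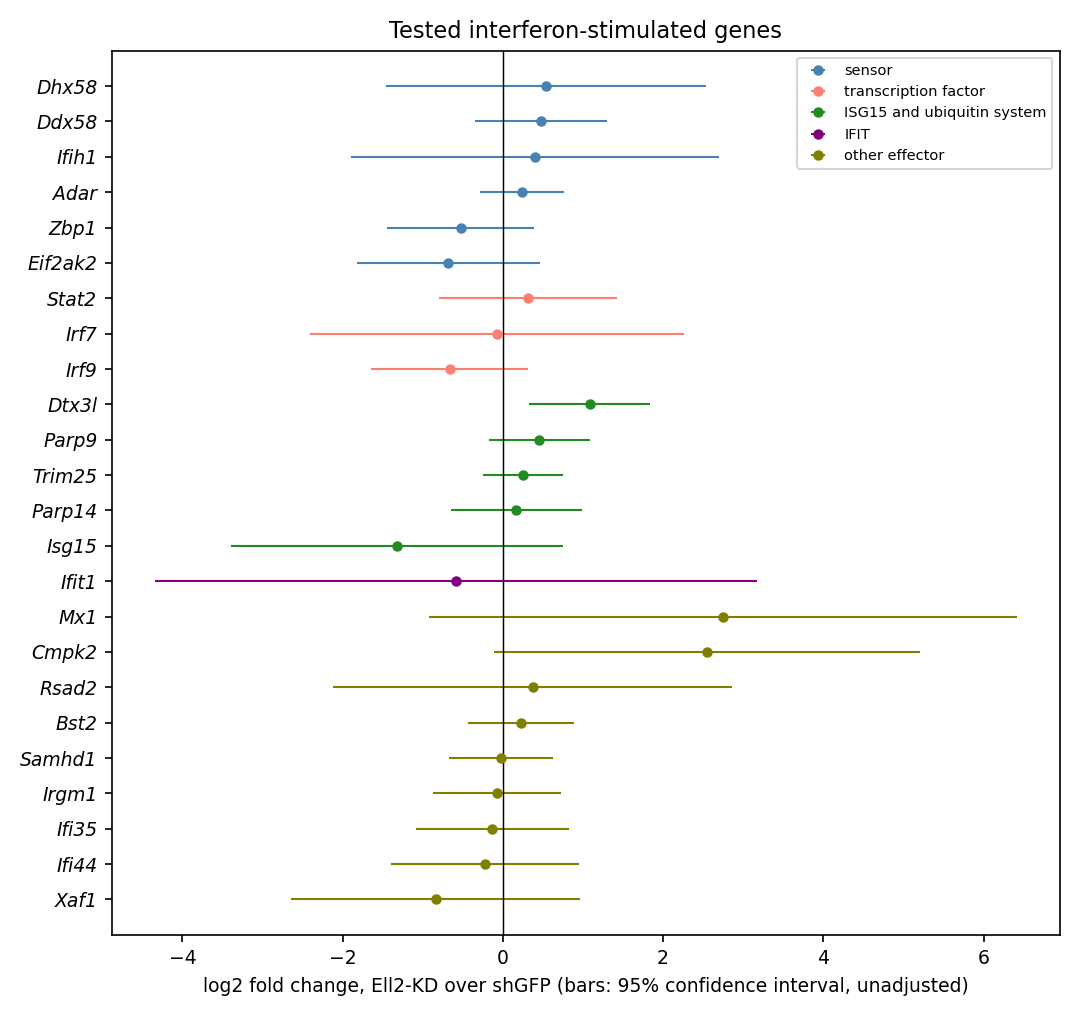
log2 fold change of each of the 24 tested genes, Ell2-KD over shGFP, with points coloured by role and bars for the unadjusted 95% confidence interval. Dtx3l is the gene whose interval lies clear of 0, and the bars of Mx1, Cmpk2 and Ifit1, which have few counts, are the widest.

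**Figure D4:**
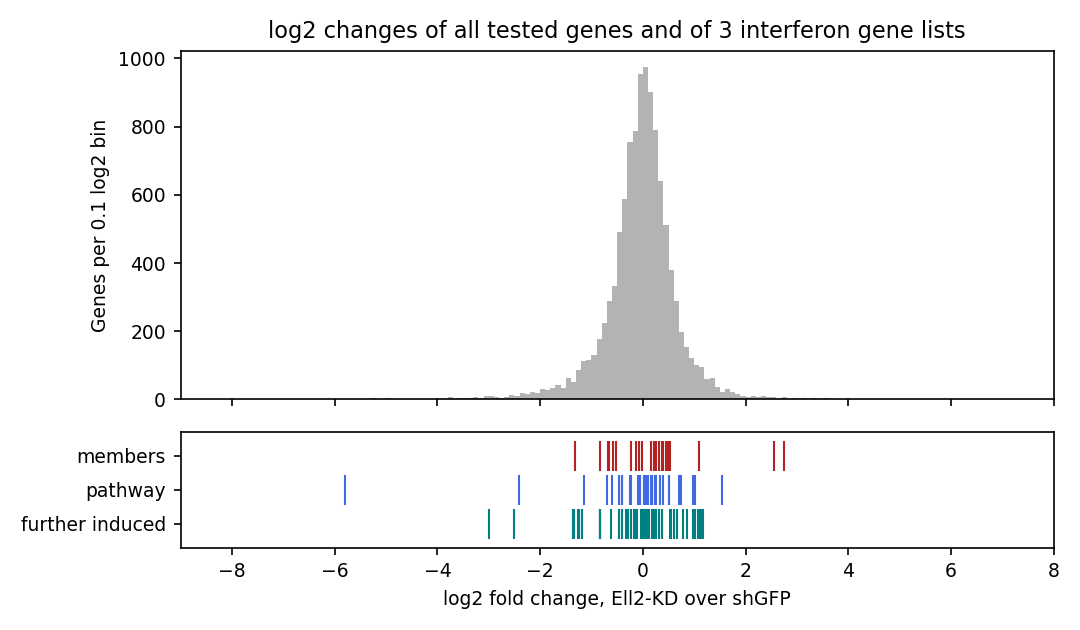
Histogram of the log2 changes of all 11027 tested genes (upper panel), with the 24 interferon-stimulated genes, 35 other genes of the pathway and 59 further interferon-induced genes as ticks (lower panel). The ticks of the 24 genes run from -1.32 to 2.75 and centre near the middle of the histogram.

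The sensors of viral RNA, grouped here with the RNA editor Adar, were all expressed. Of these 6 genes, 4 stood higher in both depleted libraries than in both controls, as did 17.4% of all tested genes. None of the 6 passed the threshold. Ddx58 encodes RIG-I, which binds RNA with a 5′ triphosphate. It stood at 29.7 and 35.9 CPM in shGFP, against 41.4 and 50.4 in Ell2-KD, a log2 difference of 0.48 ± 0.37 (SE; edgeR adjusted p = 0.95). Ifih1 encodes MDA5, the sensor of long double-stranded RNA, and was scarce, at 3.46 and 3.77 CPM against 5.11 and 4.39. Dhx58 encodes LGP2, the regulator of both, and was as scarce, at 4.29 and 4.96 CPM against 6.95 and 6.44. In these genes the groups did not overlap, but for Ifih1 and Dhx58 the 95% interval of the log2 difference ran from -1.90 to 2.70 and from -1.46 to 2.53. Adar, which edits adenosine to inosine in double-stranded RNA and so hides the cell's own RNA from MDA5, was the most abundant of the 6 by CPM. Its levels were 147 and 144 CPM in shGFP, against 169 and 174 in Ell2-KD, a tight separation of small size (log2 difference 0.24 ± 0.24 SE). Adar shares exon bases with Chrnb2 on the other strand, and the strand setting of the counting is not known.

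The other 2 sensors varied between libraries of 1 group by more than between groups. Eif2ak2 encodes PKR, the kinase that stops translation on binding double-stranded RNA. It stood at 39.6 and 25.2 CPM in shGFP, against 12.4 and 28.7 in Ell2-KD, with Ell2-KD replicate 1 low and the groups overlapping. Its log2 difference of -0.68 ± 0.52 (SE) was -1.39 without Ell2-KD replicate 2 and -0.17 without Ell2-KD replicate 1. Zbp1, the sensor of Z-form nucleic acid that can start necroptosis, stood at 69.6 and 62.3 CPM against 64.3 and 26.3. Only Ell2-KD replicate 2 was low for Zbp1, and without that library the log2 difference was -0.04 in place of -0.53, while without Ell2-KD replicate 1 it was -1.32.

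The transcription factors of the response were present at modest levels, and Irf9 was the one whose groups did not overlap. Irf9, the DNA-binding subunit of ISGF3, stood at 29.3 and 27.8 CPM in shGFP, against 18.2 and 17.9 in Ell2-KD, a log2 difference of -0.66 ± 0.45 (SE; 95% interval -1.64 to 0.32; edgeR adjusted p = 0.92). The libraries of each group were close to one another, and the difference was -0.70 to -0.61 with 1 library left out. Irf9 shares 123 of its 5386 exon bases with Rnf31 on the same strand. Stat2, its partner in ISGF3, stood at 14.8 and 19.6 CPM against 26.1 and 16.4, so the groups overlapped. Irf7, the factor that amplifies interferon-alpha production, had 60 and 20 counts in shGFP, against 26 and 31 in Ell2-KD. As CPM that was 7.15 and 3.97 against 1.84 and 9.07, the lowest and the highest library both being Ell2-KD.

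In the ISG15 system and its ubiquitin ligases, Isg15 stood lower and Dtx3l higher in both depleted libraries than in both controls, neither past the threshold. Isg15 is a ubiquitin-like protein that is attached to other proteins during the response and serves as the usual marker of it. It had 51 and 51 counts in shGFP, against 53 and 9 in Ell2-KD, which after scaling is 6.08 and 10.1 CPM against 3.76 and 2.64. The groups did not overlap, and the log2 difference of -1.32 ± 0.94 (SE) had a 95% interval from -3.39 to 0.75 (edgeR adjusted p = 0.94). With 9 counts in the shallowest library the value is imprecise, and it ranged from -1.63 to -0.91 with 1 library left out. Isg15 is a short transcript, so per kilobase it lay at the 57.9th percentile in the controls and the 34.6th in the depleted cells.

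Dtx3l, a ubiquitin ligase that works as a complex with the protein of its neighbour Parp9, had the smallest p of the 24 genes. Its levels were 59.0 and 81.2 CPM in shGFP and 105 and 193 in Ell2-KD, a 2.12-fold difference (log2 1.09 ± 0.34 SE; 95% interval 0.33 to 1.84; unadjusted p = 0.0091; edgeR adjusted p = 0.65). Its p was the 153rd smallest of the 11027. Both depleted libraries lay above both controls, and Ell2-KD replicate 2 was the highest by far. Without that library the log2 difference was 0.59, and without Ell2-KD replicate 1 it was 1.47. Parp9, which binds and directs Dtx3l to DNA and chromatin, stood at 101 and 76.0 CPM against 119.7 and 124, a log2 difference of 0.46 ± 0.28 (SE). Dtx3l and Parp9 lie next to each other with Parp14 on the other side of Dtx3l, and they share 458 exon bases on opposite strands, so without a known strand setting part of their reads cannot be told apart. Parp14, a mono-ADP-ribosyltransferase, did not separate the groups, at 82.4 and 90.3 CPM against 60.2 and 135. In all 3 neighbours Ell2-KD replicate 2 was the highest of the 4 libraries. Trim25 was highest there too, at 352 CPM, with 300.5 and 247 CPM in the controls and 299 in Ell2-KD replicate 1.

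The IFIT and OAS families, which bind or act on viral RNA, were near the floor of detection and showed no common pattern between groups. Of the 3 IFIT genes only Ifit1, which seizes RNA lacking the 2′-O methyl mark of host caps, was tested. It had 8 and 19 counts in shGFP, against 2 and 11 in Ell2-KD, and both replicates numbered 2, at 3.77 and 3.22 CPM, lay above both numbered 1, at 0.95 and 0.14 CPM. Ifit2, which can promote apoptosis, had 1 and 2 counts in shGFP, against 2 and 15 in Ell2-KD. Ifit1, Ifit2 and Ifit3 thus had 9, 24, 4 and 26 counts in all in shGFP replicates 1 and 2 and Ell2-KD replicates 1 and 2. Oasl1, an OAS-like protein that restrains Irf7 translation, had 1 and 5 counts in shGFP, against 55 and 5 in Ell2-KD. Nearly all its counts came from Ell2-KD replicate 1, the deepest library, where it reached 3.90 CPM against 1.46 in the other depleted library, and it missed the count filter.

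None of the tested effectors passed the threshold, and the groups of the abundant ones overlapped. Samhd1, which removes the nucleotides that reverse transcription needs, stood at 171 and 112 CPM in shGFP, against 118 and 161 in Ell2-KD, a log2 difference of -0.02 whose 95% interval ran from -0.67 to 0.63. Irgm1, an immunity-related GTPase that controls autophagy and membranes around pathogens, stood at 138 and 76.0 CPM against 127 and 75.5. Its levels followed the replicate number and not the hairpin. Bst2 stood at 61.4 and 84.7 CPM against 90.9 and 79.6, with the groups overlapping and an interval from -0.44 to 0.89. Ifi35, an interferon-induced leucine zipper protein, and Ifi44, a microtubule-associated protein, also overlapped, at 24.1 and 36.1 CPM against 25.0 and 29.9 for Ifi35, and at 27.5 and 21.6 against 12.2 and 30.4 for Ifi44.

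Cmpk2, a mitochondrial nucleotide kinase, and Rsad2, its neighbour in the genome, are usually induced together. Rsad2 encodes viperin, which makes a chain-terminating nucleotide from the product of Cmpk2. Cmpk2 had 4 and 10 counts in shGFP, against 96 and 25 in Ell2-KD, or 0.48 and 1.98 CPM against 6.81 and 7.32. The depleted libraries were close to each other and above both controls, and the log2 difference was 2.55 ± 1.21 (SE; 95% interval -0.11 to 5.20; edgeR adjusted p = 0.86). It ranged from 1.83 to 3.85 with 1 library left out, the higher value resting on the 4 counts of 1 control. Cmpk2 met the count filter in both depleted libraries and in shGFP replicate 2. Mx1, described below, met it only through Ell2-KD, so the direction of Mx1 was fixed by the filter. Rsad2 did not share the pattern of Cmpk2. Rsad2 had 17 and 24 counts in shGFP, against 84 and 9 in Ell2-KD, or 2.03 and 4.76 CPM against 5.96 and 2.64. Mx1, a GTPase that blocks influenza virus in strains with an intact gene, had 1 and 4 counts in shGFP, against 35 and 12 in Ell2-KD, or 0.12 and 0.79 CPM against 2.48 and 3.51. Its log2 difference of 2.75 ± 1.66 (SE) had a 95% interval from -0.92 to 6.41 (edgeR adjusted p = 0.91), and was 1.90 without shGFP replicate 1 and 4.48 without shGFP replicate 2. Xaf1, which promotes apoptosis by countering XIAP, was lower in both depleted libraries, at 7.51 and 10.5 CPM against 4.54 and 5.56 (log2 difference -0.84 ± 0.82 SE; edgeR adjusted p = 0.97). Of the 24 tested genes, Isg15, Irf9 and Xaf1 were the 3 lower in both depleted libraries. The 8 that were higher were Ddx58, Ifih1, Dhx58, Adar, Dtx3l, Parp9, Cmpk2 and Mx1. Oasl1, which was not tested, was also higher in both.

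The matches to the response element did not divide the genes by direction. Of the 9 tested genes with a match, 5 lay above 0 on the log2 scale and 4 below. Of the 10 tested genes with a window and no match, 4 lay above 0 and 6 below. Median levels were 3.25 CPM per kilobase in the 11 genes with a match and 3.75 in the 13 without, and the genes with a match included Bst2 at one end and Oas1a at the other.

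The interferons that start the pathway were scarcely counted in any culture. The 19 type I, II and III interferon genes looked for had 8 and 5 counts in all in shGFP, against 5 and 4 in Ell2-KD. Ifnb1, the first type I interferon that most cells make, had 3 and 2 counts in shGFP, against 2 and 0 in Ell2-KD. The receptor chains were expressed: Ifnar1 stood at 128 and 144 CPM in shGFP and 175 and 211 in Ell2-KD (log2 difference 0.51 ± 0.25 SE; edgeR adjusted p = 0.87), and Ifnar2 at 88.8 and 138 against 90.8 and 139.6. Of the receptor kinases, Tyk2 stood at 79.3 and 50.2 CPM against 80.8 and 43.3, while Jak1 was listed at 6.68 and 5.95 against 3.97 and 3.81.

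The remaining receptors, kinases and factors also did not pass, and 19 of the 35 tested pathway genes took the other sign under at least 1 alternative. Ifngr1 and Ifngr2, the chains of the interferon-gamma receptor, had log2 differences of -0.22 ± 0.43 and -0.41 ± 0.43 (SE), and Il10rb, a chain shared by the receptors of interleukin 10 and interferon-lambda, of -0.59 ± 0.31. Without Ell2-KD replicate 1 the value for Ifngr1 was 0.24, and without Ell2-KD replicate 2 it was -0.84. Among the kinases, Jak2, which serves the interferon-gamma receptor, had a log2 difference of 0.52 ± 0.37 (SE), which was 0.010 without Ell2-KD replicate 2 and 0.91 without shGFP replicate 2. Tbk1, which phosphorylates Irf3, had a log2 difference of 0.07 ± 0.31. Ikbke, a relative of Tbk1, had 29 and 2 counts in shGFP, against 1 and 23 in Ell2-KD, so its 2 higher libraries belonged to different groups, and its log2 difference of 0.72 was -4.56 without Ell2-KD replicate 2. Irf3, the factor that first switches on Ifnb1, stood at 48.2 and 27.6 CPM against 37.9 and 48.9. Stat3, Irf2 and Irf5, factors that serve other cytokines or sensors as well, had log2 differences of 0.24, 0.23 and -0.07. The groups of Ikbke, Irf3, Stat3, Irf2 and Irf5 all overlapped.

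Of the 59 other pathway genes looked for, 35 were tested and 0 passed with edgeR. In this list 21 log2 changes were positive and 14 negative, with a median of 0.07. Of 74 further interferon-induced genes in the files, 59 were tested and 0 passed, with 33 positive, 26 negative and a median of 0.08. At an unadjusted p under 0.05 edgeR gave 3 pathway genes (8.57%) and 5 of the further genes (8.47%), against 5.82% of all tested genes. For the 94 genes of both lists DESeq2 gave 10 before adjustment, against 6.25% of all genes, and 1, Irf8, after it. Irf8, a factor of B and myeloid cells, had 93 and 37 counts in shGFP, against 3 and 0 in Ell2-KD (edgeR adjusted p = 0.45). Irf8 met the count filter only through the control libraries, so its direction was fixed by it. Tnfaip3 and Ptpn6 are named after their values were seen. Tnfaip3, the ubiquitin-editing inhibitor A20, stood at 6.56 and 6.75 CPM against 18.5 and 20.5 (edgeR adjusted p = 0.78). Ptpn6, the phosphatase SHP-1 that damps receptor signalling, stood at 10.6 and 8.14 CPM against 1.99 and 1.46. Irf1, a factor that drives many genes of the response to interferon-gamma, stood at 50.9 and 84.7 CPM against 111 and 109 (edgeR adjusted p = 0.85). Among the sensors and adaptors, E330016A19Rik, the DNA sensor cGAS, stood at 11.4 and 10.3 CPM against 14.6 and 30.2, and Tmem173, its partner STING, at 86.6 and 82.9 against 117 and 64.7. Mavs, the mitochondrial adaptor of RIG-I and MDA5, stood at 42.5 and 28.2 CPM against 42.3 and 16.4. Unc93b1, which brings Toll-like receptors to endosomes, stood at 327 and 242 CPM against 233 and 179, lower in both depleted libraries (log2 difference -0.47 ± 0.25 SE). Myd88, an adaptor of those receptors, stood at 5.60 and 15.1 CPM against 18.1 and 16.1. Log2 differences of the other 5 were 0.40 for Aim2 and 0.18 for Ifi204, which bind DNA, 0.17 for Traf3 and 0.07 for Traf6, ubiquitin ligases of the signalling chain, and -0.10 for Ticam1, the adaptor of Tlr3. Ifi204 had an SE of 0.61, and its value was -0.76 without Ell2-KD replicate 1 and 0.75 without shGFP replicate 2. The Toll-like receptors of nucleic acid, Tlr3, Tlr7 and Tlr9, had at most 11 counts in any library and were not tested.

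**Figure D5:**
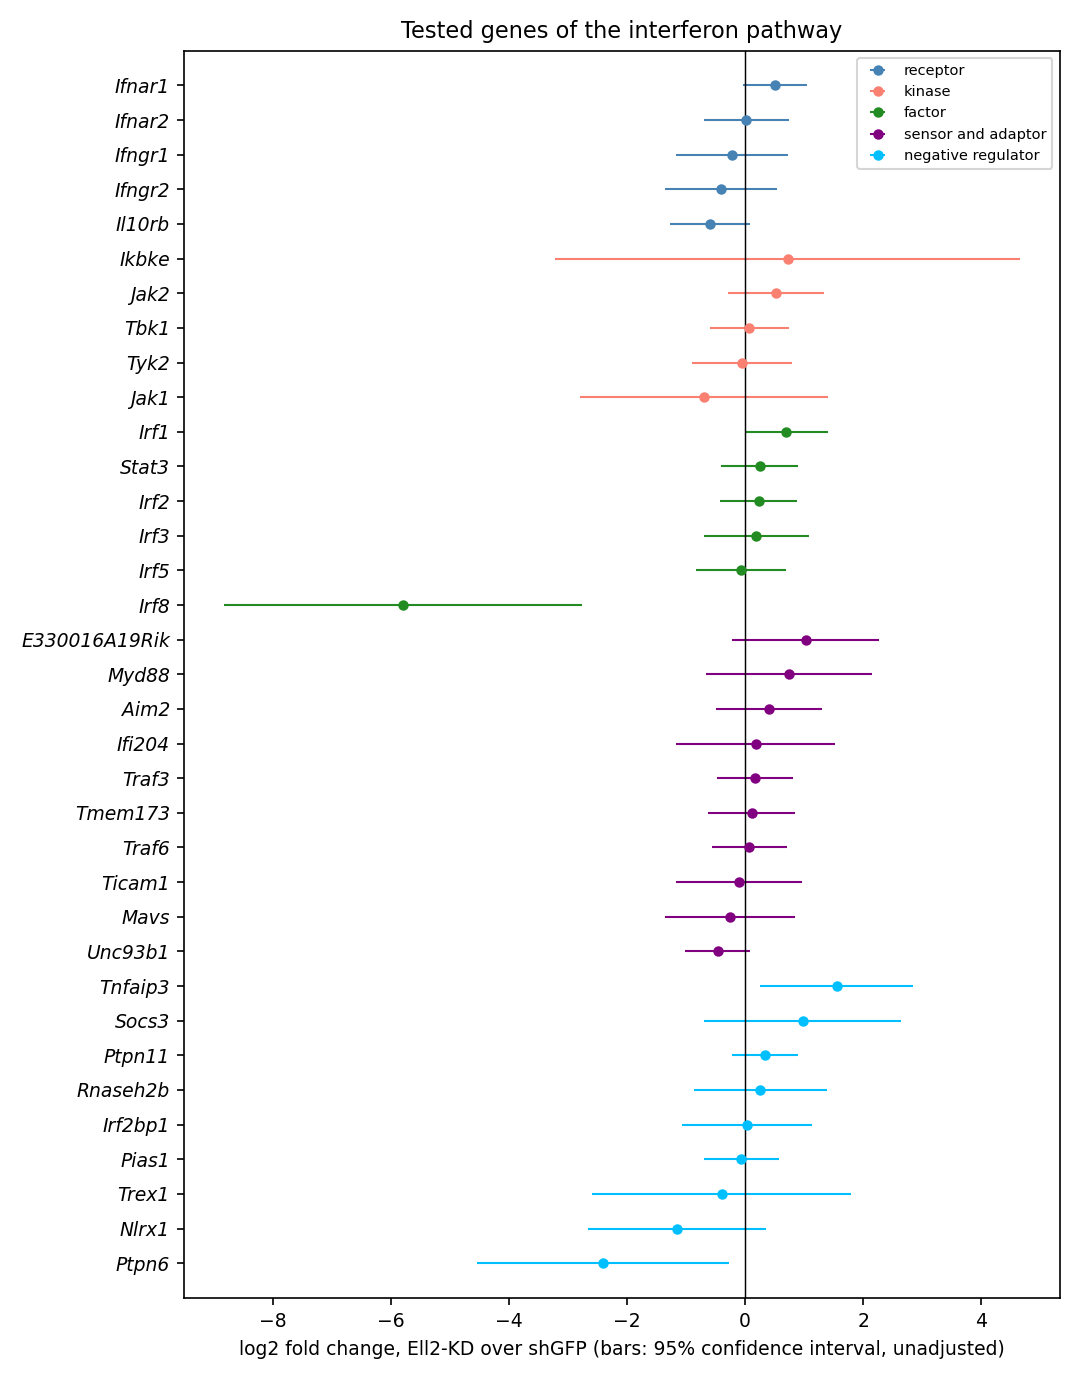
log2 fold change of the 35 tested genes of the interferon pathway outside the 31, Ell2-KD over shGFP, coloured by role with unadjusted 95% confidence intervals. The intervals of Irf8, Ptpn6 and Tnfaip3 lie clear of 0, and none of the 35 passed after adjustment over all genes. Irf8 met the count filter only through the control libraries, and Ptpn6 met it there and in Ell2-KD replicate 1.

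Among the further induced genes, those with the smallest p stood on both sides. Toward higher levels in Ell2-KD were Lgals3bp, a secreted glycoprotein, at 15.5 and 17.5 CPM against 37.5 and 34.5, Ifi47, an immunity-related GTPase, at 13.8 and 14.5 against 34.0 and 29.3, and Gbp4, a guanylate-binding protein, at 13.0 and 15.3 against 26.9 and 35.4. Znfx1, a helicase that binds viral RNA, came next, at 17.1 and 25.8 CPM against 37.8 and 36.0. Toward lower levels were Ifitm3, which blocks viral fusion in endosomes, at 11.6 and 10.3 CPM against 2.48 and 1.17, and Tnfsf10, the death ligand TRAIL, at 118 and 117 against 77.0 and 76.4. Trim14, an adaptor on mitochondria, had 45 and 20 counts against 8 and 2, and Tor3a, an interferon-induced torsin, stood at 20.5 and 11.1 CPM against 5.18 and 8.20. None of these 8 genes passed, with edgeR adjusted p from 0.75 to 0.885. Irf8 and Trim14 met the count filter only through the control libraries and so had to stand higher there. Ptpn6 and Ifitm3 met it in both control libraries and in Ell2-KD replicate 1.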

How the data were processed

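Per the labels, total RNA of 2 shGFP and 2 Ell2-KD cultures of MPC11 was read by SOLiD sequencing. The authors deposited raw counts per gene symbol, 1 table per library, per the file headers. The submitters' processing notes name HTSeq 0.5.3, SAMtools 0.1.11, DESeq 1.4.1 and the mouse build mm9. For the aligner, annotation and strand setting, the choice is not given in the sources used. In the GENCODE M21 annotation (GRCm38), 11 of the 31 genes share exon bases with another gene. That annotation gave exon lengths, and RefSeq gave names, neighbours and promoter windows. Its coordinates are of GRCm38.p6, and the counts carry none.

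Low genes were removed with filterByExpr at a minimum count of 10 and a minimum total of 15. TMM scaling and the quasi-likelihood test (robust, group as the only term, two-sided) were run in edgeR 4.0.16, and p-values were adjusted over all 11027 tested genes, with a threshold of 0.05. The standard error is the log2 change divided by the square root of F. The common biological coefficient of variation was 0.43. Alternatives were RLE and upper quartile scaling, no filter or a minimum count of 30, DESeq2 1.42.0, a replicate block, and leaving out each library. The script was tested on simulated counts. The members and lists were chosen with earlier results of these data known. The rule named the members with at least 10 counts in 2 libraries, every tested receptor, kinase, factor, sensor and adaptor of the pathway list, and up to 4 further induced genes in each direction with the smallest p. Results for 1 pathway gene were left out and are not reported here.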

Additional observations from a re-analysis of the deposited data

How the results depend on the processing

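The count of interferon-stimulated genes past the threshold was 0 in each direction under all 10 alternatives, and their median log2 change, 0.20 as reported, ran from 0.15 with the replicate block to 0.28 without Ell2-KD replicate 1. Of the 24 tested genes, 15 kept the sign of their log2 change under every alternative that tested them (Ifih1 and Mx1 were not tested at the stricter filter) and 9, with log2 changes from -0.58 (Ifit1) to 0.37 (Rsad2), took the other sign when 1 library was left out. Over all genes, 1 passed as higher and 4 as lower. These counts were 2 higher with RLE scaling, 8 and 14 with no filter, 21 and 25 with DESeq2, and 15 and 13 with the replicate block. With 1 library left out, 0 to 2 passed as higher and 1 to 4 as lower, where a lone library was assumed to vary like the others. Among the other interferon genes 1 passed as lower with DESeq2, Irf8 (log2 change -5.93, adjusted p = 0.017), which met the count filter only through the control libraries. Same-numbered libraries deviated together over all genes (r = 0.31 over 11027 genes), but hardly over the 24 tested interferon-stimulated genes (r = 0.06). The labels give no shared batch and there are only 2 pairs. With the replicate block the smallest adjusted p of the 24 genes was 0.11 (Dtx3l), against 0.65 without it. With 2 libraries per group, and 1 of 3496471 counts, differences in genes under about 10 counts could not be resolved.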
